A study of Mus musculus with 22 samples.

Results

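Mitosis genes in the mouse kidney were followed through subchronic cisplatin exposure with and without istradefylline (KW6002), an adenosine receptor antagonist. The 45 genes were chosen by gene symbol, with no threshold on measured values but with earlier results of these data known. All 45 were found among the 32858 genes of the count table. All 45 also passed the filter on low counts, which left 17131 genes for testing. Kidneys came from 22 male C57Bl6/J mice aged 8 to 10 weeks, each mouse gave 1 library, and no transgene or deletion was involved. The vehicle group held 5 mice and the KW6002 group 6 mice (3 mg/kg each day from day -5 to day 7). The cisplatin group held 5 mice, given 6 daily intraperitoneal injections of 3 mg/kg from day 0 and sacrificed 72 hours after the last one. The co-treated group held 6 mice given both drugs on these schedules. The question was which mitosis genes rose with cisplatin and which fell below the vehicle level once KW6002 was added.

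Dividing cells make the mitotic machinery in bulk shortly before they divide and remove it afterward, so its mRNAs mark cells between S phase and the end of division. Cyclin-dependent kinase 1 with its A and B cyclins starts mitosis, kinetochores tie chromosomes to spindle microtubules, the spindle checkpoint holds back the anaphase-promoting complex until all are attached, and the chromosomal passenger complex and cytokinesis proteins finish the division. The uninjured adult kidney divides little, and surviving tubular cells can re-enter the cycle after toxic injury, including that caused by cisplatin, a DNA crosslinking drug. Many of these genes share promoter elements through which the DREAM complex represses them in resting cells and MYBL2 and FOXM1 activate them in dividing ones.

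The mRNAs were scarce. Levels are given as CPM, the counts of a gene scaled to a normalized library size of 1000000, and libraries held 26471762 to 40510754 counts. The median member averaged 1.68 CPM over the 22 mice, against 15.98 CPM for the median of all tested genes. Averages were below 1 CPM for 13 members and above 5 CPM for 7, single counts ran from 2 to 1903, and 16 members had fewer than 10 counts in at least 1 mouse. Per kilobase of exon, the highest was Spc25, a subunit of the NDC80 kinetochore complex, at 8.57 CPM per kilobase. It was followed by Kif23 at 2.04, Kif20b at 1.91, Spc24 at 1.63, Nek2 at 1.29, Cdc20 at 1.08, and Nusap1 at 1.01 CPM per kilobase, and the lowest was Kif15 at 0.0673. Of the 44 neighboring pairs in this order, 43 had overlapping ranges across mice, and only Spc25 stood clear of the next, its lowest mouse at 4.79 against 3.65 CPM per kilobase for the highest of Kif23. The exons of 11 members overlap exons of a gene on the other strand: Ccna2, Cdc20, Cdca8, Ckap2l, Kif20a, Kif4, Nek2, Nusap1, Plk1, Prc1, and Ube2c. The library kit kept strand, but whether counting used it was not stated. If strand was ignored, union mode counts a read over exons of both genes for neither. Reads in the shared bases may then be missing from these 11. Top2a also shares 122 exon bases with Gm23451, a small nucleolar RNA gene on the same strand. Reads of Top2a there may be missing whether or not strand was used. The tissue label was borne out by its markers, since the 6 proximal tubule markers summed to 14940 to 16700 CPM in vehicle mice.

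Promoters are shown as examples for 3 textbook mitotic genes and for 3 members that behaved differently from most. Whether the elements go with the course of a member was not tested. RefSeq promoters (build GRCm38.p6, 250 bases before to 50 after the start) were matched for 38 of the 45 members, giving 40 promoters. Dlgap5, Pbk, Kif20a, Ccna2, Tpx2, Aurkb, and Spc24 had no entry. Capitals mark the cell cycle genes homology region (CHR, searched as TTTGAA or TTCGAA) and the CCAAT box, each on either strand, and no 2 matches overlapped in the promoters printed.
Plk1 (chr7:122159185-122159484, plus strand): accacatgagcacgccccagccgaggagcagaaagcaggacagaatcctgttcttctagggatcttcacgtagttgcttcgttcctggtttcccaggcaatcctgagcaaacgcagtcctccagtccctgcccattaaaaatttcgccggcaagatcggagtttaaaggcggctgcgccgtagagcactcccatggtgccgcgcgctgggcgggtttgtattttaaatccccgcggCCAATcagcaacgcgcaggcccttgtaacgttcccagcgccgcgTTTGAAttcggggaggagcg
Cdc20 (chr4:118437294-118437593, minus strand): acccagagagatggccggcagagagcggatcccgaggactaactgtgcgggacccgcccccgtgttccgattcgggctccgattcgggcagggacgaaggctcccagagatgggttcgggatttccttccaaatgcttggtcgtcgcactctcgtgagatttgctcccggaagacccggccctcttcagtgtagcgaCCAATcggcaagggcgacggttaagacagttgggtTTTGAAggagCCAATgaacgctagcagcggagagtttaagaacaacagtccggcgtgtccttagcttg
Ccnb2 (chr9:70421505-70421804, minus strand): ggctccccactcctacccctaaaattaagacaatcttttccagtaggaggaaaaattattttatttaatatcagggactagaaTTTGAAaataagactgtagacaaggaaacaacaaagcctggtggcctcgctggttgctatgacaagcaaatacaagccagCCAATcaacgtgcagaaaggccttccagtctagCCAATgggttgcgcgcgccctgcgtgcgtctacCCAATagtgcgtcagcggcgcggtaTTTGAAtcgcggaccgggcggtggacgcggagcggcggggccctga
Kif20b (chr19:34922108-34922407, plus strand): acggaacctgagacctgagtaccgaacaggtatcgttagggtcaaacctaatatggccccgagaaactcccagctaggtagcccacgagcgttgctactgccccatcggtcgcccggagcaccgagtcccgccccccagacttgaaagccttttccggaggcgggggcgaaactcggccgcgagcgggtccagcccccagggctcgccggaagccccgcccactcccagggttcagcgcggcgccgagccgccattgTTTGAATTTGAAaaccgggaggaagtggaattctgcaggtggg
Nek2 (chr1:191821223-191821522, plus strand): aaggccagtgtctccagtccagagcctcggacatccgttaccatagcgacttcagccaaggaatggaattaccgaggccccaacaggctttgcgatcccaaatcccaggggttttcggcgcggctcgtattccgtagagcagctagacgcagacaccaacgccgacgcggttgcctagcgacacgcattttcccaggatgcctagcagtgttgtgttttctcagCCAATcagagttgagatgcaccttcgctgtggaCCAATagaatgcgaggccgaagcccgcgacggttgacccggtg
Nusap1 (chr2:119618048-119618347, plus strand): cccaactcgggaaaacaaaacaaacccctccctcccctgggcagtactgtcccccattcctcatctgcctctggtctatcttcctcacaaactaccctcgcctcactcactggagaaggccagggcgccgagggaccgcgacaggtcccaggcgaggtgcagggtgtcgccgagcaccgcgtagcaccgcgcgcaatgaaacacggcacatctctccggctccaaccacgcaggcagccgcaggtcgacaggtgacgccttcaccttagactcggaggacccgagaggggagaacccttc

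In the promoter of Plk1, the CHR match began at base 31 after the start, with a CCAAT box at -14. In Cdc20 the CHR match lay at -18, between CCAAT boxes at -53 and -8. Ccnb2 had a CHR match at 5 and another at -167, with CCAAT boxes at -87, -54, and -21. Kif20b carried tandem CHR matches at 8 and 14 and no CCAAT box, Nek2 had CCAAT boxes at -26 and 8 and no CHR match, and Nusap1 had neither. A CHR match was present in 82.5% of the 40 member promoters and in 19.2% of all 32851 RefSeq promoters of the same length. The CCAAT box was present in 75.0% against 37.4%, and both were present in 67.5% against 7.5%. By gene, 31 of the 38 matched members had a CHR match, in 29 of them within 50 bases of a start. The 7 without it were Birc5, Ccnb1, Cenpe, Melk, Nek2, Nuf2, and Nusap1. Of these, Birc5, Ccnb1, Melk, Nek2, and Nuf2 rose with cisplatin and fell with KW6002 added. Birc5, Melk, and Nuf2 had no CCAAT box either. Kif23, taken up below among the departures, had both elements. Among other mitosis genes, the CHR match was present in 56.1% of 82 promoters, and among DNA replication genes in 20.9% of 43. A match describes these letters in this window and shows no binding.

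The mean of the 45 members, taken per mouse as the log2 CPM difference from the vehicle mean, separated the cisplatin mice from all others. The cisplatin mice lay at 1.27, 1.00, 0.91, 0.87, and 1.32. The vehicle mice lay at 0.42, 0.45, -0.04, -0.45, and -0.38, the KW6002 mice between -0.30 and 0.18, and the co-treated mice between -0.80 and 0.04. No cisplatin mouse overlapped another group, whereas the co-treated mice overlapped both the vehicle and the KW6002 mice. Co-treated replicate 1 was the highest of its group for 22 members and the only co-treated mouse above the vehicle mean. Each value gives all 45 members equal weight. Summed instead, the members came to 227 ± 19.6 CPM with cisplatin (SD, n = 5), 98.2 ± 11.0 CPM with both drugs (SD, n = 6), 127 ± 11.8 CPM with vehicle (SD, n = 5), and 125 ± 11.3 CPM with KW6002 (SD, n = 6), sums to which Spc25, Kif23, and Kif20b contributed most in vehicle mice. In whole kidney, more dividing cells and more mitotic RNA per cell cannot be told apart.

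**Figure D1:**
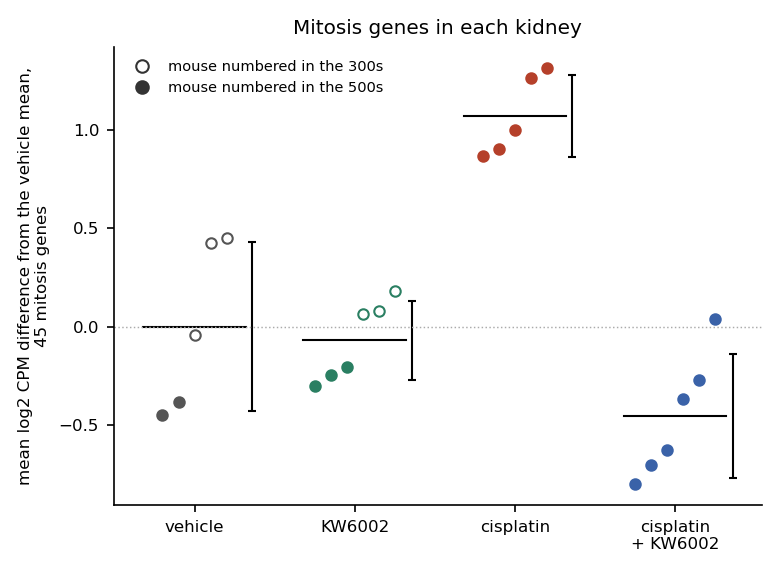
Mean log2 CPM difference from the vehicle mean over the 45 mitosis genes, 1 point per mouse; lines are group means, bars are SD, open points are mice numbered in the 300s and filled points those in the 500s. The 5 cisplatin mice sit between 0.87 and 1.32, above every other mouse, and the vehicle and KW6002 mice split by number series.

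The vehicle and KW6002 mice differed by the number series of their labels. Vehicle replicates 1 to 3 and KW6002 replicates 1 to 3 carry numbers in the 300s, and the other 16 mice, among them all cisplatin and co-treated mice, carry numbers in the 500s. What the numbers stand for was not stated. Vehicle mice of the 300s had means of -0.04 to 0.45 and those of the 500s -0.45 and -0.38. The same order held with KW6002, at 0.07 to 0.18 for the 300s and -0.30 to -0.21 for the 500s. In a fit with the series as a covariate, added after the data were seen, 12 members were higher in the 300s and 2, Kif20b and Kif23, were lower (edgeR quasi-likelihood test, adjusted p below 0.05), where 5.64% of all genes were higher. The median difference was 0.64 on the log2 scale, against 0.01 for all genes. Mki67, Cdk1, Ccna2, Ccnb2, Cdc20, Ube2c, Cenpe, Spc24, Spc25, Hmmr, Dlgap5, and Racgap1 were the 12. The summaries of each comparison with vehicle are therefore also given within the 500s, where vehicle has 2 mice, with the values of the members that moved most.

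Cisplatin raised most members. Against vehicle, 40 of 45 were higher, 1 (Kif20b) was lower, and Cenpe, Pbk, Cenpa, and Nusap1 did not pass (adjusted p below 0.05 over all tested genes). Over all genes, 34.6% were higher and 35.9% lower. The median log2 fold change was 1.13 over the members and -0.01 over all genes. For 27 members every cisplatin mouse exceeded every vehicle mouse, which was so for 27.4% of all genes. Within the 500s, 41 members were higher (31.4% of all genes) and the median was 1.76. The fold change was more than 1.5 times as large there for 19 members, of which Aurkb (log2 3.36), Kif18b (3.34), and Dlgap5 (3.23) reached the highest values. The count fell to 35 without cisplatin replicate 5 and stayed between 36 and 41 without any other mouse.

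Mki67 encodes the Ki-67 protein, which coats mitotic chromosomes and is the usual marker of cycling cells. It was at 7.09, 7.38, 5.14, 2.82, and 3.58 CPM in the vehicle mice and at 13.0, 10.3, 9.35, 9.79, and 15.4 CPM in the cisplatin mice. In KW6002 mice it ranged from 3.68 to 6.43 CPM with a median of 4.48, and in co-treated mice from 1.65 to 5.98 CPM with a median of 2.98. The cisplatin mice stood above all others without overlap, and the co-treated mice overlapped both control groups. The rise with cisplatin was 2.23-fold (log2 1.16 ± 0.29 SE, adjusted p = 0.00117; log2 1.85 within the 500s), and co-treated mice were 3.66-fold below cisplatin (log2 -1.87 ± 0.28 SE, adjusted p = 6.56e-06). Top2a, the topoisomerase that untangles sister chromatids, was at 6.02, 5.65, 3.36, 2.11, and 3.32 CPM with vehicle and at 14.0, 11.5, 9.89, 10.5, and 15.4 CPM with cisplatin. With both drugs it spanned 2.03 to 4.96 CPM with a median of 2.60. It thus showed the same separation, with a 2.99-fold rise (adjusted p = 1.64e-05) and a 4.20-fold lower level when KW6002 was added (adjusted p = 5.18e-07).

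**Figure D2:**
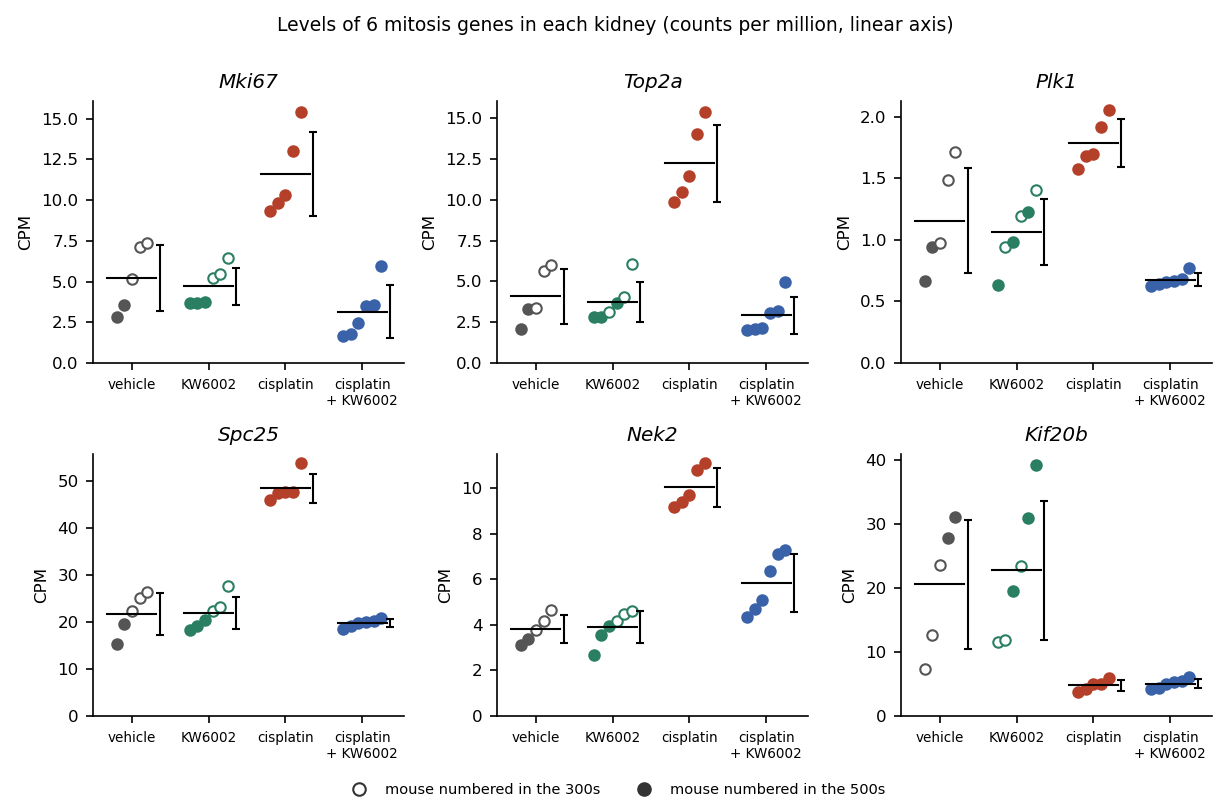
CPM of 6 mitosis genes in each mouse on linear axes from 0; lines are means, bars are SD, open points are mice numbered in the 300s and filled points those in the 500s. Mki67, Top2a, and Spc25 are highest in all cisplatin mice, Nek2 stays above vehicle on average with both drugs (5.82 against 3.82 CPM), and Kif20b falls from 20.5 CPM with vehicle to 4.75 CPM with cisplatin and 5.05 CPM with both drugs.

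Among the 9 mitotic kinases and cyclins, 8 rose with cisplatin and all 9 fell when KW6002 was added. Cdk1, the kinase that starts mitosis, was at 2.27, 1.84, 1.08, 0.881, and 1.04 CPM with vehicle and at 4.88, 4.09, 3.94, 4.09, and 4.08 CPM with cisplatin. In the co-treated group it spanned 0.725 to 1.53 CPM with a median of 1.11. Cisplatin mice did not overlap the rest, and the fold changes were 2.96 up (log2 1.57 ± 0.24 SE, adjusted p = 3.59e-06) and then 3.81 down (log2 -1.93 ± 0.23 SE, adjusted p = 2.30e-07). Its partners Ccnb1, Ccnb2, and Ccna2 rose by 1.63, 1.13, and 0.83 on the log2 scale. The kinase Melk had the highest log2 fold change of the 45 against all vehicle mice (2.10 ± 0.42 SE, adjusted p = 0.000107) at very low levels, next to Kif18b at 2.09. Within the 500s Melk was at 3.08, below Aurkb, Kif18b, and Dlgap5. It was at 0.421, 0.441, 0.235, 0.176, and 0.0976 CPM with vehicle and at 1.60, 1.48, 0.586, 0.829, and 1.39 CPM with cisplatin. In co-treated mice it ranged from 0.203 to 0.863 CPM, so that this group overlapped both others. Aurka, the kinase of the spindle poles, rose by 0.69 and then differed by -1.03 (log2). Pbk, a mitotic kinase also called TOPK, did not pass with cisplatin (log2 0.56 ± 0.34 SE, adjusted p = 0.143) but fell with KW6002 added (log2 -1.84 ± 0.35 SE, adjusted p = 0.0001).

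The 6 genes of the spindle checkpoint and the anaphase-promoting complex all rose and all fell again. Cdc20, the activator of that complex at anaphase, was at 2.10, 2.89, 1.58, 0.810, and 1.04 CPM with vehicle and at 3.89, 3.84, 4.13, 3.42, and 3.17 CPM with cisplatin. Co-treated mice ranged from 0.686 to 1.43 CPM with a median of 1.37. Cisplatin mice again did not overlap the other groups, with log2 fold changes of 1.14 ± 0.25 SE (adjusted p = 0.000358; 1.98 within the 500s) and then -1.56 ± 0.24 SE (adjusted p = 1.04e-05). Larger rises were seen for Ube2c, its ubiquitin-conjugating enzyme (log2 1.82), and for Bub1, a checkpoint kinase (log2 1.80). The checkpoint kinases Ttk and Bub1b rose by 1.42 and 1.10 (log2). Cdca3, a trigger of mitotic entry, rose least (log2 0.50, adjusted p = 0.0311). It did not pass with the replicate block (adjusted p = 0.0522), in a fit of only the groups compared (0.0653), or without vehicle replicate 3, 4, or 5 or cisplatin replicate 5 (0.0553 to 0.140). Within the 500s the rise of Cdca3 was larger (log2 0.93, adjusted p = 0.00661).

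Of the 8 centromere and kinetochore genes, 6 rose with cisplatin and all 8 fell with KW6002 added. Spc25 was at 26.4, 25.1, 22.3, 19.7, and 15.3 CPM with vehicle and at 45.9, 47.6, 47.5, 47.6, and 53.9 CPM with cisplatin. Co-treated mice lay closely together, from 18.6 to 20.8 CPM with a median of 19.9. The cisplatin mice exceeded all others, with log2 fold changes of 1.16 ± 0.11 SE (adjusted p = 4.58e-09) and -1.29 ± 0.11 SE (adjusted p = 1.36e-09). The other subunits of its complex, Nuf2, Ndc80, and Spc24, rose by 1.52, 1.43, and 1.03 (log2). The kinetochore scaffold Knl1 and the large coiled-coil protein Cenpf rose by 0.98 and 0.88, and then fell by 2.35 and 2.23 on the log2 scale. The rise of Cenpf did not pass without vehicle replicate 4 or 5 or cisplatin replicate 5 (adjusted p = 0.053 to 0.0724). Within the 500s it was larger (log2 1.87, adjusted p = 0.00079). Cenpa, the histone H3 variant of centromeres, and Cenpe, a kinetochore motor, did not pass with cisplatin. Cenpe was at 3.50, 3.85, 3.23, 2.29, and 2.31 CPM with vehicle and at 3.38, 2.34, 3.36, 2.78, and 4.30 CPM with cisplatin, full overlap. In co-treated mice it ranged from 0.812 to 1.40 CPM, below every mouse of both groups.

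Of the 8 kinesins, motor proteins that move or shape spindle microtubules, 7 rose and Kif20b fell, and 6 were lower with KW6002 added. Kif18b, which trims microtubule ends, rose most. It was at 1.30, 0.441, 0.269, 0.176, and 0.228 CPM with vehicle and at 2.16, 1.98, 1.84, 1.44, and 3.03 CPM with cisplatin. With both drugs it spanned 0.206 to 0.684 CPM with a median of 0.374, without overlap with cisplatin, and the log2 fold changes were 2.09 ± 0.39 SE (adjusted p = 5.65e-05) and -2.36 ± 0.37 SE (adjusted p = 1.24e-05). Without vehicle replicate 1 the rise was 2.91 on the log2 scale. Kif2c, Kif15, Kif4, Kif11, and Kif20a rose by 1.26, 1.06, 0.92, 0.68, and 0.58 (log2), and differed from cisplatin by -1.82, -2.23, -1.86, -1.53, and -1.70 in co-treated mice. Without cisplatin replicate 5, the rises of Kif4 and Kif20a no longer passed (adjusted p = 0.0731 and 0.0633). That of Kif11 did not pass without vehicle replicate 5 or cisplatin replicate 1 (adjusted p = 0.0510 and 0.0519). Within the 500s the rises of Kif4, Kif20a, and Kif11 were larger (log2 1.35, 0.90, and 0.94, adjusted p = 0.0200, 0.00425, and 0.0220).

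Among the 6 spindle microtubule proteins, 5 rose and then fell, with Nusap1 the exception. Dlgap5, a spindle assembly factor, was at 0.874, 0.642, 0.437, 0.106, and 0.260 CPM with vehicle and at 2.34, 1.38, 1.60, 1.39, and 2.21 CPM with cisplatin. In the co-treated group it spanned 0.240 to 0.895 CPM with a median of 0.359. Cisplatin mice did not overlap the rest, with a 3.83-fold rise (log2 1.94, adjusted p = 0.000251) and a 3.61-fold lower level when KW6002 was added (adjusted p = 0.000273). Prc1, which bundles the microtubules of the central spindle, rose by 1.58 and then fell by 2.37 on the log2 scale, and Tpx2, the activator of Aurora A, rose by 1.51 and then fell by 1.98. Hmmr, the hyaluronan receptor that also sits on spindles, was at 1.72, 2.21, 1.11, 0.775, and 0.618 CPM with vehicle and at 2.93, 2.03, 1.81, 1.87, and 3.34 CPM with cisplatin. These groups overlapped by 1 vehicle mouse, and the rise was 1.88-fold (log2 0.91 ± 0.28 SE, adjusted p = 0.00647). Co-treated mice ranged from 0.290 to 0.544 CPM, below every cisplatin and vehicle mouse, and were 5.14-fold below cisplatin (adjusted p = 4.65e-07).

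All 6 genes of the chromosomal passenger complex and cytokinesis rose and fell again. Aurkb, Birc5, and Cdca8 encode the kinase, survivin, and borealin of the complex, and rose by 1.76, 1.31, and 0.57 (log2). The rise of Cdca8 was close to the threshold (adjusted p = 0.0483). It did not pass without the filter on low counts (0.0658), in a fit of only the groups compared (0.0782), or without any 1 of 14 mice (0.0512 to 0.144), but within the 500s it was larger (log2 1.32, adjusted p = 0.000975). Ect2, the exchange factor that starts the cleavage furrow, was at 4.79, 4.13, 6.02, 4.40, and 4.72 CPM with vehicle and at 8.60, 8.16, 8.29, 7.36, and 6.0 CPM with cisplatin. With both drugs it spanned 3.26 to 4.22 CPM with a median of 3.47. The cisplatin group overlapped vehicle by 1 mouse and did not overlap the co-treated group, with log2 fold changes of 0.67 ± 0.13 SE (adjusted p = 8.89e-05) and -1.09 ± 0.13 SE (adjusted p = 1.88e-07). The furrow proteins Anln and Racgap1 rose by 1.40 and 0.72 (log2).

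**Figure D3:**
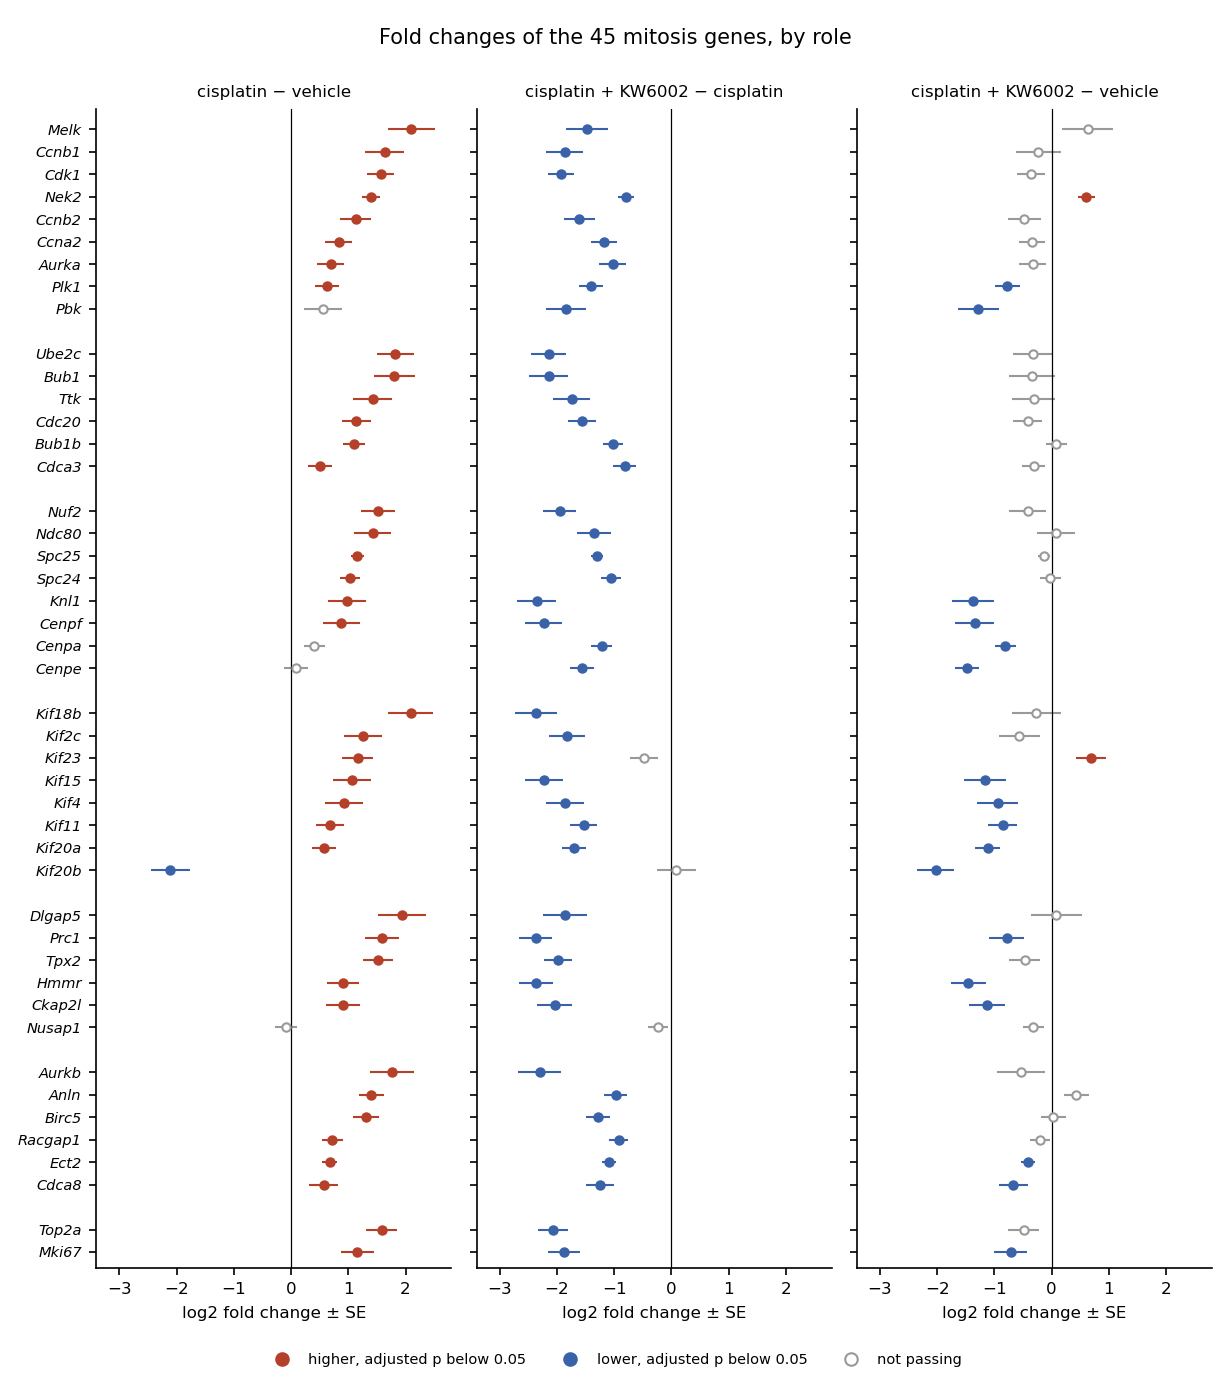
Log2 fold changes with SE of the 45 mitosis genes, grouped from top to bottom as kinases and cyclins, checkpoint and anaphase-promoting complex, centromere and kinetochore, kinesins, spindle microtubule proteins, chromosomal passenger complex and cytokinesis, and mitotic chromosome. Filled points pass at an adjusted p below 0.05: 40 higher and 1 lower with cisplatin, 42 lower when KW6002 was added, and 17 lower and 2 higher with both drugs against all vehicle mice.

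Adding KW6002 to cisplatin lowered 42 of the 45 members relative to cisplatin alone, and none was higher by edgeR or DESeq2 or at an unadjusted p below 0.05. Over all genes, 27.2% were lower and 28.6% higher. The median log2 fold change was -1.61, against 0.01 for all genes. For 40 members every co-treated mouse lay below every cisplatin mouse, which was so for 18.5% of all genes. The exceptions were Melk, Ndc80, Kif20b, Kif23, and Nusap1. The fall was largest for Prc1 (log2 -2.37 ± 0.29 SE, adjusted p = 4.29e-07), Hmmr, and Kif18b, and the smallest that passed were those of Nek2 (log2 -0.79) and Cdca3 (log2 -0.82). This comparison holds no mouse of the 300s. A fit within the 500s called 43 members lower, Kif23 among them, against 28.6% of all genes.

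KW6002 without cisplatin moved no member past the threshold. Of the 45, 0 passed with edgeR and 0 with DESeq2, and 1, Hmmr, had an unadjusted p below 0.05 (log2 -0.64, adjusted p = 0.408). Over all genes, 0.0175% passed. The median log2 fold change of the members was -0.12, and the values ran from -0.64 to 0.36. Within the 500s the median was 0.15, with 29 members positive and 16 negative, and again 0 passed. The interaction term, which sets the KW6002 effect under cisplatin against that without it, passed for 42 members, negative in all 42, where 42.7% of all genes passed in either direction. Its median was -1.56 on the log2 scale, and the members that did not pass were Kif20b, Kif23, and Nusap1.

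Against all 5 vehicle mice, co-treated mice had 17 lower members, 2 higher ones, and 26 that did not pass, with a median log2 fold change of -0.42. Over all genes, 29.9% were lower and 29.8% higher, so the lower members were not far above the share of all genes and the higher ones were below it. Every co-treated mouse lay below every vehicle mouse for 4 members (18.5% of all genes): Cenpe, Kif20a, Kif20b, and Hmmr. The full course asked about, higher with cisplatin alone and lower than vehicle with both drugs, was met by 13 members and by 0.94% of all genes. These were Plk1, Cenpf, Knl1, Kif4, Kif11, Kif15, Kif20a, Prc1, Hmmr, Ckap2l, Cdca8, Ect2, and Mki67. By role, they include 4 of 8 kinesins, 3 of 6 spindle microtubule proteins, 2 kinetochore proteins, 2 of the passenger complex and cytokinesis group, 1 kinase, and Mki67, and none of the checkpoint group.

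Plk1, the polo-like kinase that acts from mitotic entry to cytokinesis, showed this course against all 5 vehicle mice. It was at 1.72, 1.48, 0.975, 0.669, and 0.944 CPM with vehicle and at 1.92, 2.06, 1.68, 1.58, and 1.70 CPM with cisplatin. Co-treated mice ranged from 0.627 to 0.773 CPM with a median of 0.661, and KW6002 mice from 0.633 to 1.40 CPM. The cisplatin range took in the highest vehicle mouse and the co-treated range the lowest. The log2 fold changes against vehicle were 0.63 ± 0.21 SE with cisplatin (adjusted p = 0.00998) and -0.77 ± 0.21 SE with both drugs (adjusted p = 0.00367). Against vehicle, the log2 fold changes of co-treated mice were -1.45 for Hmmr, -1.37 for Knl1, -1.35 for Cenpf, -1.17 for Kif15, -1.14 for Ckap2l, and -1.12 for Kif20a. They were -0.94 for Kif4, -0.85 for Kif11, -0.79 for Prc1, -0.72 for Mki67, -0.67 for Cdca8, and -0.41 for Ect2, with adjusted p-values from 0.000124 for Kif20a to 0.0365 for Mki67. With library size scaling, Kif4, Prc1, Cdca8, Ect2, and Mki67 did not pass (adjusted p from 0.0571 to 0.101). In a fit of only the groups compared, Prc1 and Mki67 did not pass (0.0677 and 0.0836). Mki67 and Kif4 also failed without vehicle replicate 1, 2, or 3 or co-treated replicate 2, 3, or 4. Prc1 failed without vehicle replicate 1 or 2 or the same co-treated mice, and Cdca8 without vehicle replicate 2 or 3. Pbk, Cenpa, and Cenpe were also lower than vehicle with both drugs (log2 -1.28, -0.81, and -1.47) without having passed as higher with cisplatin.

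Fewer members were below vehicle without the vehicle mice of the 300s. Within the 500s, 4 members were lower than vehicle with both drugs (Kif20b, Cenpe, Cenpa, and Kif20a), where 23.7% of all genes were, and 3 were higher (Anln, Nek2, and Spc24), where 24.6% of all genes were. The median log2 fold change moved from -0.42 to 0.09, and the full course was met by 2 members, Kif20a of the 13 and Cenpa, and by 0.473% of all genes. With the series as a covariate it was met by 3, Kif20a and Hmmr of the 13 and Cenpe, and by 0.689% of all genes. In that fit 5 members were lower and 4 higher than vehicle, where 27.5% and 28.5% of all genes were. Mki67 moved from -0.72 to -0.02 (adjusted p = 0.964), Plk1 from -0.77 to -0.26 (adjusted p = 0.399), and Cdca8 changed sign, from -0.67 to 0.08. Ect2 kept a fold change of -0.34 (from -0.41), Pbk of -0.92 (from -1.28), and Kif11 of -0.59 (from -0.85) without passing. Vehicle has only 2 mice in that fit, so a missed threshold there does not show equal levels. KW6002 mice were therefore set in the place of vehicle, an alternative chosen after the data were seen. Against all KW6002 mice, 12 members (26.7%) were lower and 3 (6.67%) higher in co-treated mice, with 28.8% of all genes lower and 29.3% higher. Against the 3 KW6002 mice of the 500s, 7 members (15.6%) were lower and 3 higher, with 25.1% of all genes lower and 26.1% higher. The shares of the members were thus below those of all genes. Those 7 were Kif20b, Cenpe, Cenpf, Ect2, Knl1, Kif11, and Kif20a. Cenpe, Kif20a, and Kif20b were lower in all 4 of these comparisons.

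**Figure D4:**
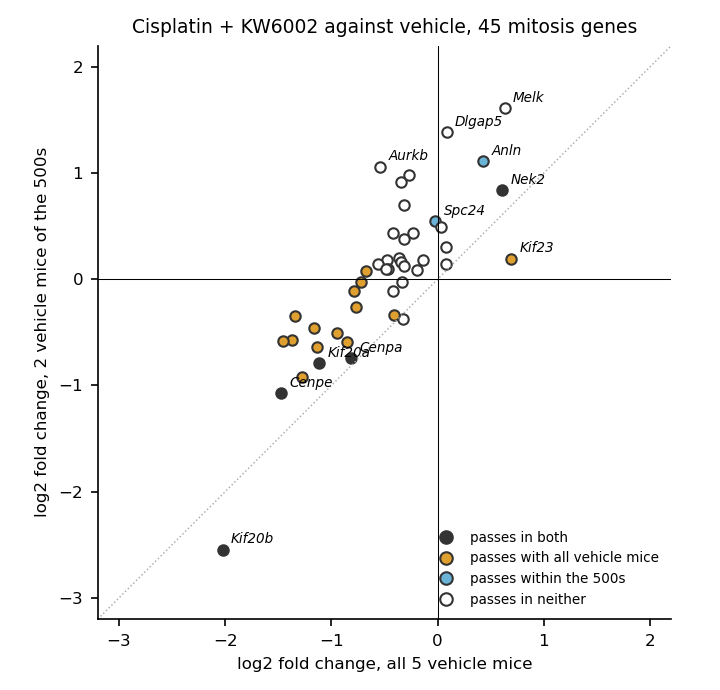
Log2 fold change of cisplatin plus KW6002 against vehicle for each of the 45 mitosis genes, with all 5 vehicle mice (horizontal axis) and with the 2 vehicle mice of the 500s (vertical axis); the dotted line marks equal values and fill shows where the gene passed at an adjusted p below 0.05. Nearly all points lie above the line, the median moves from -0.42 to 0.09, and Kif20b, Cenpe, Kif20a, and Cenpa are the 4 that pass as lower in both.

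A few members departed from the common course in the fit of all mice. Nek2, a centrosome kinase, was at 3.76, 4.17, 4.67, 3.10, and 3.38 CPM with vehicle and at 9.70, 11.1, 10.8, 9.39, and 9.17 CPM with cisplatin. In the co-treated group it spanned 4.35 to 7.31 CPM with a median of 5.73, clear of the cisplatin mice and overlapping vehicle at the lower end. Its level with both drugs was 1.52-fold that of vehicle (log2 0.61 ± 0.15 SE, adjusted p = 0.00145) and remained higher within the 500s (log2 0.84, adjusted p = 0.00228). Kif23, the central spindle motor, was at 7.51, 8.78, and 7.56 CPM in the vehicle mice of the 300s and at 17.9 and 13.0 CPM in those of the 500s. Cisplatin mice were at 22.6, 23.7, 28.9, 28.8, and 18.9 CPM, and co-treated mice ranged from 16.1 to 19.3 CPM. Its higher level with both drugs (log2 0.69 ± 0.26 SE, adjusted p = 0.0283) shrank to 0.19 within the 500s (adjusted p = 0.384), where co-treated and vehicle mice overlapped. Within the 500s Kif23 followed the common course. There it rose with cisplatin (log2 0.67, adjusted p = 0.00393) and fell with KW6002 added (log2 -0.47, adjusted p = 0.00367).

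Kif20b, a kinesin of late cytokinesis, ran against the group. Vehicle mice were at 7.38, 12.7, 23.6, 31.1, and 27.8 CPM, and KW6002 mice ranged from 11.6 to 39.2 CPM with a median of 21.4. Cisplatin mice were at 4.98, 5.02, 4.13, 3.69, and 5.95 CPM and co-treated mice ranged from 4.15 to 6.02 CPM. Both cisplatin groups lay below every control mouse and overlapped each other. The level was 4.32-fold below vehicle with cisplatin (log2 -2.11 ± 0.34 SE, adjusted p = 8.60e-06) and 4.07-fold below it with both drugs (adjusted p = 1.16e-05). KW6002 added to cisplatin changed it by log2 0.09 ± 0.34 SE (adjusted p = 0.842). Nusap1, a microtubule bundling protein, passed in none of the 3 comparisons. It was at 4.31, 5.49, 3.73, 5.04, and 4.49 CPM with vehicle, at 4.56, 4.42, 3.54, 3.13, and 6.0 CPM with cisplatin, and between 2.84 and 5.63 CPM in co-treated mice, ranges that overlapped throughout.

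Other parts of the cell cycle program were described from lists of textbook genes, in the same fit, to be read against the shares of all genes given above (34.6% higher and 35.9% lower with cisplatin, 28.6% higher and 27.2% lower with KW6002 added). Of 82 other mitosis genes tested, 49 rose and 11 fell with cisplatin (median log2 0.51), and 55 fell and 5 rose when KW6002 was added (median -0.59). Their extremes with cisplatin were Psrc1, Ckap2, and Gtse1 upward (log2 7.03, 5.02, and 4.99) and Cit, Cenpp, and Depdc1b downward (log2 -2.62, -1.82, and -1.50). Psrc1, Ckap2, and Gtse1 are also known p53 targets or partners, and they remained above vehicle with both drugs (log2 5.62, 4.0, and 4.27). Of 45 DNA replication genes, 28 rose and 8 fell with cisplatin (median log2 0.39), but 13 fell and 4 rose with KW6002 added (median -0.08). Clspn, Rrm2, and Uhrf1 rose most (log2 2.21, 2.03, and 1.68). Against vehicle, co-treated mice had 17 higher and 6 lower replication genes of the 45, where 29.8% of all genes were higher and 29.9% lower.

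Of 38 tested regulators of the cycle, 19 rose and 7 fell with cisplatin, and 20 fell and 5 rose with KW6002 added, against the same shares of all genes. Their leading genes upward were Cdkn2b, an inhibitor of the G1 kinases, E2f8, and Cdc25c, the phosphatase that activates Cdk1 (log2 2.15, 1.62, and 1.59). Foxm1, the transcriptional activator of many members, rose by 0.79 and then fell by 0.96 on the log2 scale (adjusted p = 0.00117 and 0.000169). Mybl2, the other activator, rose by 0.50 (adjusted p = 0.0213) and differed by -0.24 with KW6002 added (adjusted p = 0.251). Foxm1 and Mybl2 are counted among the other mitosis genes, not among the 38 regulators. All 12 genes of a list that p53 can induce rose with cisplatin. The list held Cdkn1a, Ccng1, Sfn, Gadd45a, Btg2, Rprm, Plk2, Plk3, Gtse1, Sesn1, Sesn2, and Mdm2. Gtse1 is also counted among the other mitosis genes. Cdkn1a, which encodes p21, went from 11.1 ± 2.89 CPM (SD, n = 5) with vehicle to 881 ± 55.6 CPM (SD, n = 5) with cisplatin and 620 ± 87.3 CPM (SD, n = 6) with both drugs. Its log2 fold change was -0.51 ± 0.20 SE between the last pair of groups (adjusted p = 0.0321), and the level with both drugs remained 56.1-fold that of vehicle. Among these 12 genes, 8 fell and 1 rose with KW6002 added, and 11 remained above vehicle.

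Markers of several cell types differed between the groups, but not all took the course of the mitosis genes. Sums of cisplatin and vehicle mice overlapped for collecting duct, endothelium, neutrophil, and macrophage markers. Collecting duct markers were at 484 to 694 CPM with vehicle, 600 to 861 CPM with cisplatin, and 586 to 930 CPM with both drugs. Endothelium markers were at 411 to 455, 408 to 559, and 373 to 432 CPM in that order. Their medians of 424, 542, and 397 CPM were highest with cisplatin and lowest with both drugs, the order of the mitosis sums. Neutrophil markers were at 3.70 to 15.9, 4.32 to 9.43, and 3.55 to 6.555 CPM. Podocyte, thick ascending limb, distal convoluted tubule, and plasma cell sums were lower in every cisplatin mouse than in any vehicle mouse. The 5 fibroblast markers summed to 182 to 398 CPM with vehicle, 771 to 1009 CPM with cisplatin, and 342 to 639 CPM with both drugs, and all 5 rose with cisplatin. The 6 macrophage markers summed to 146 to 262, 176 to 236, and 98.4 to 147.5 CPM in the same order, with Cd68 rising and Csf1r and Adgre1 falling with cisplatin. Proximal tubule markers fell from at least 14940 CPM to 1137 to 2323 CPM with cisplatin and stood at 5431 to 8505 CPM with both drugs. Red cell and precursor markers summed to 68.3 to 411 CPM with vehicle, 2.58 to 5.05 CPM with cisplatin, and 2.84 to 5.04 CPM with both drugs, and 5 of the 6 tested were lower with cisplatin, all but Klf1. T cell markers summed to at most 6.22 CPM and B cell markers to at most 3.27 CPM in any vehicle mouse, and both were lower with cisplatin. Among control mice, the macrophage markers had medians of 203 CPM in the 300s and 147 CPM in the 500s, and red cell markers 252 and 77.2 CPM, the same direction as most mitosis genes. The part of these shifts in the levels of the mitosis genes was not tested.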

How the data were processed

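Kidney RNA of 22 mice was profiled by RNA-Seq, 1 library per mouse. The deposited values are counts: the authors prepared stranded poly(A) libraries, sequenced single reads of 50 bases, aligned them to mm10 with STAR 2.5.3a, and counted uniquely aligned reads per gene with HTSeq-count 0.6.1p1 in union mode, without normalization. Ensembl releases 90 and 102 are named for the annotation, and use of strand in counting is not stated. Another 66 columns of the table have neither name nor value and were not used.

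Symbols and positions came from GENCODE M21 (mm10). Counts were analysed with edgeR 4.0.16 and limma 3.58.1 in R 4.3.3: filterByExpr (10 counts at the median library size, which is 0.306 CPM, in at least 5 libraries), TMM normalization, 1 mean per group, and quasi-likelihood F tests, with p-values adjusted by the Benjamini-Hochberg method over all 17131 genes tested. A gene passed at an adjusted p below 0.05. Log2 CPM used a prior count of 2. Totals of 26471762 to 40510754 counts limit the precision of the scarcest members. Each test sets a difference between groups against the spread between mice. In the main fit that spread includes the difference between the number series. Alternatives were DESeq2 1.42.0, relative log expression factors, library size scaling, no filter, fits restricted to the groups compared, the replicate block, the label series as a covariate, only mice numbered in the 500s, the thresholds of the study (a log2 fold change beyond 1 at an adjusted p below 0.01), and each mouse left out.

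The members, the other gene lists, and the role groups were chosen with earlier results of these data known. Values of each vehicle and cisplatin mouse, and the range of co-treated mice, are given for Mki67, Top2a, Cdk1, Plk1, the member with the highest level per kilobase in each role, and the 3 members with the largest and smallest fold changes against vehicle in either cisplatin group. Members with the full course are named with their fold changes. Of other lists, the 3 that moved furthest in either direction are drawn on, with Cdkn1a, Foxm1, and Mybl2; an item that falls under this rule is not reported here. Promoters came from RefSeq (GRCm38.p6).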

Additional observations from a re-analysis of the deposited data

Results flagged for a closer look

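A single mouse stood apart from the other mice of its group in 4 of the 68 sets of values examined (the log2 CPM of the members given per mouse and the mean of the 45 members, in each of 4 groups), and chance gives such a gap in about 1 of 20 groups. In cisplatin mice, replicate 1 was high for Cdk1 (2.30, next 2.06) and replicate 5 for Spc25 (5.75, next 5.58). In co-treated mice, replicate 3 was low for Cdc20 (-0.42, next 0.36) and replicate 4 for Hmmr (-1.51, next -0.95). These are log2 CPM values.

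The effect of KW6002 differed between mice with and without cisplatin for 42 of the 45 members by the interaction term of the edgeR fit. Of the members given per mouse, the difference passed for 13, in log2 units: Spc25 (-1.31), Nek2 (-0.83), Cdc20 (-1.56), Ect2 (-1.31), Top2a (-1.96), Mki67 (-1.74), Plk1 (-1.28), Cdk1 (-1.73), Cenpe (-1.47), Kif18b (-1.79), Hmmr (-1.72), Melk (-1.80), and Dlgap5 (-1.95). All 13 were negative. KW6002 mice with cisplatin were all numbered in the 500s, and KW6002 mice without it were in both number series.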

How the results depend on the processing

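The members lower with KW6002 added to cisplatin numbered 42 or 43 under every alternative at an adjusted p below 0.05, and 42 to 43 with 1 mouse left out. Those higher with cisplatin numbered 38 to 42, and 35 to 41 with 1 mouse left out. Counts against vehicle with both drugs moved more. With the label series as a covariate, 5 members were lower and 4 higher than vehicle, and 3 met the full course, 2 of them among the 13. With only mice numbered in the 500s, 4 were lower and 2 met the full course, 1 of them among the 13, and Cdca8 turned from -0.67 to 0.0801 (log2). With KW6002 mice of the 500s in place of vehicle mice, an alternative chosen after the data were seen, 7 were lower, where 25.1% of all genes were. The cause of these shifts was not tested. With 1 mouse left out, 13 to 21 members were lower and 1 to 3 higher than vehicle, and 9 to 15 met the full course. The count of higher members was 1 without vehicle replicate 2 or without vehicle replicate 3.

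The thresholds of the study, stricter by construction, left 26 members higher with cisplatin, 9 lower and 0 higher than vehicle with both drugs, 1 with the full course, and 24 with a different KW6002 effect. No share of all genes was taken at these thresholds, so whether these counts exceed it cannot be read. Library size scaling left 12 lower than vehicle and 10 with the full course.

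Replicate numbers did not pair the mice: of 31 pairs of same-numbered mice, 7 had a correlation of deviations over 0.1 (range -0.18 to 0.41). With the replicate block, 40 members were higher with cisplatin, 42 lower with KW6002 added, 17 lower than vehicle with both drugs, and 14 met the full course.

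Depth limits the scarcest members, since 16 had fewer than 10 counts in at least 1 mouse.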
